A study of Mus musculus with 26 samples.

Results

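The 18 arrays of immortalized mouse blood progenitor lines described here, of 26 arrays in the study, were chosen by their titles: 9 with doxycycline (dox) and 9 without. The comparison estimates a common dox difference over lines of both cells of origin, allowing for the mean level of each origin and time. The level at which each line started was not removed. A gene can pass without differing in each origin. All groups were of strain C57BL/6, and the lines were harvested from liquid medium. Lines derived from long-term haematopoietic stem cells (LT-HSC) gave 2 arrays with dox and 3 without at 48 h, and 3 of each at 72 h. Lines derived from granulocyte macrophage progenitors (GMP) gave 4 arrays with dox and 3 without, all at 48 h. Origin and time form 3 strata. The arrays came from 7 named lines, 6 of them sampled in both conditions. The 48 h and 72 h arrays of LT-HSC-derived lines came from the same lines and are not independent. LT-HSC-derived line B6-1 has no 48 h array with dox, and GMP-derived line B6-1 has none without, leaving 8 pairs of a dox and a no-dox array of the same line and time. Not given in these sources are the event from which the hours are counted (start or end of dox), the promoter that drives the fusion, the way in which the lines were immortalized and whether a line is 1 clone. The other 8 arrays, of LT-HSC and GMP sorted from wild-type mice, served as reference levels.

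The lines carry MLL-AF9, which joins the amino-terminal part of the histone methyltransferase MLL (gene Kmt2a) to AF9 (Mllt3), a subunit of complexes that help RNA polymerase to elongate. The fusion is known to keep HOXA genes and their cofactor Meis1 active in leukaemia cells and to hold myeloid cells at a progenitor stage. Doxycycline is a drug that controls engineered tetracycline-responsive genes. No array with dox came from cells without the fusion, so effects of the drug itself and of the gene it controls cannot be told apart here. The labelled cell type was checked against marker lists. All 8 genes found in blood cells in general, such as Ptprc (CD45), exceeded the median of all probe sets, 5.85 on the log2 scale, and so did all 8 primary granule genes of myeloid progenitors, each in its higher condition. The typical gene of the lists for B cells, T and NK cells, and stroma and endothelium lay below it, between 4.46 and 5.25 with dox. Not every list of another lineage was that low. With dox the typical mast cell and basophil gene was at 6.62, the typical megakaryocyte gene at 6.21 and the typical erythroid gene at 5.84. In their higher condition 7 of 10 mast cell and basophil genes and 4 of 5 megakaryocyte genes exceeded the median. Whether these signals came from such cells was not tested. The residual spread of single arrays ran from 0.101 to 0.191 log2 units and was highest on the 72 h no-dox array of LT-HSC-derived line B6-1. The array measures mouse Kmt2a and Mllt3, and whether these probe sets also see the fusion transcript was not tested, so they do not check the labels.

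Dox went with small differences in many genes and with large decreases in some. Limma called 1582 of 19937 genes higher with dox (7.93%) and 1466 lower (7.35%) at an adjusted p under 0.05 (Benjamini-Hochberg over all genes), and 5066 genes had an unadjusted p under 0.05. These shares are the background for the counts of called list members given below. The median difference, dox minus no dox on the log2 scale, was 0.27 for the higher and -0.34 for the lower genes, against -0.01 over all genes. Past 2-fold, 16 genes rose and 149 fell. Of the 3048 called genes 2934 (96.3%) had the same sign in all 3 strata, and 1988 had it in all 8 pairs. The genes were called on these same arrays, which favours agreement of sign, so these counts are no separate result. Arrays with and without dox did not overlap in any stratum for 411 higher genes (2.06%) and 409 lower genes (2.05%), and 812 of these 820 were called. Pooling also called genes that no stratum called alone: 985 (32.3%), 501 higher and 484 lower. Since the arrays hold bulk RNA, fewer cells of a type and less RNA per cell cannot be told apart in any of these values. Nothing in the labels says that the lines came from separate mice, so p-values measure the spread between these samples.

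The largest increase was that of Hprt. After it came Cth, Meis1, the cationic amino acid transporter Slc7a3, the ATP-gated channel P2rx3, the transcriptional coactivator Eya1, Hoxa5, Cd34, the transcription factor Mef2c, Gimap6, Dpy19l3 and Hoxa9, with differences from 2.18 down to 0.88. A second probe set of P2rx3 gave a mean of 0.69 over the strata, against 1.4. The largest decreases ran from -3.66 to -2.51: Ltf, Clec4n, Klk1b11, Vcan, Ifitm6, Mrc1, the macrophage elastase Mmp12, Clec4a1, Il1r2, Clec4a3, Fn1 and Lcn2. Genes of both sets were picked among those whose arrays did not overlap in any stratum, so that feature is no result about them. The pick also made a lack of overlap over all arrays, given for some of them below, more likely. It left out genes with differences larger than some of these, such as Mecom and Epha7 among increases and Stfa3 among decreases.

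The origins share no array, so fitting each alone gave the dox effect in separate sets of arrays. Some line names recur in both origins, and these sources do not say whether such lines share a mouse or a batch. The 11 LT-HSC-derived arrays called 519 genes higher (2.60%) and 698 lower (3.50%), and the 7 GMP-derived arrays called 920 higher (4.61%) and 820 lower (4.11%). Both fits called 570 genes, 569 of them in the same direction. The exception, named after its values were seen, was Prkd2 (protein kinase D2), at 0.41 in LT-HSC-derived and -0.40 in GMP-derived lines. Of genes higher in LT-HSC-derived lines 52.2% were also called higher in GMP-derived lines, and of the lower genes 42.7% were called lower. Taken from GMP-derived to LT-HSC-derived lines these shares were 29.5% and 36.3%.

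Signs were followed as well. Their shares cannot be below those of calls, since a gene called in the same direction has the same sign. Of genes called higher in LT-HSC-derived lines 91.5% had a positive difference in GMP-derived lines, against 54.2% of all genes, and of those called lower 94.8% had a negative one, against 45.8%. Genes called higher in GMP-derived lines had a median difference of 0.44 there, 0.12 in LT-HSC-derived lines at 48 h and 0.29 at 72 h. Those called lower had -0.59, -0.215 and -0.33. Genes called higher in LT-HSC-derived lines had medians of 0.36 there and 0.38 in GMP-derived lines, and those called lower -0.50 and -0.47. Across all genes the differences of both origins had Pearson's r = 0.689, a description over genes, which are not independent replicates.

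**Figure D1:**
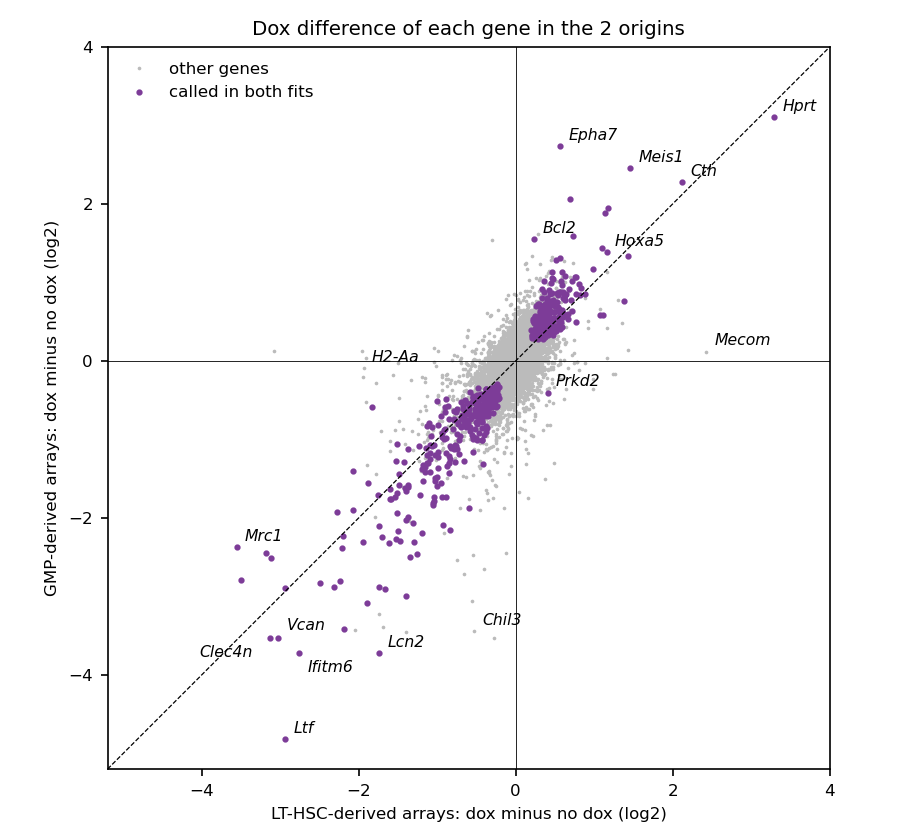
Log2 difference of each gene (dox minus no dox) in the 11 LT-HSC-derived arrays (horizontal) and the 7 GMP-derived arrays (vertical). Each point is a gene and the coloured points are the 570 called in both fits, with a dashed line where both differences are equal; 569 of these have the same sign in both origins.

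Most MLL fusion targets rose with dox. Of 19 measured targets 16 rose and 1 fell, against 7.93% and 7.35% of all genes, with a list median of 0.57 and pair medians from 0.39 to 0.79. Meis1 was at 9.16 and 9.47 with dox and at 7.71, 7.80 and 8.63 without on 48 h arrays of LT-HSC-derived lines. At 72 h it was at 9.38, 9.20 and 9.58 against 7.59, 7.74 and 8.0, and in GMP-derived lines at 9.13, 8.93, 9.33 and 8.95 against 6.81, 6.36 and 6.71. No array without dox reached any array with dox, and the GMP-derived arrays without dox were the lowest. The pooled difference was 1.85 ± 0.16 (SE; adjusted p = 6.14e-07). Sorted LT-HSC had a mean Meis1 level of 10.71 and sorted GMP 7.02.

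Hoxa9, a transcription factor of stem and progenitor cells, lay between 7.38 and 7.57 on the 9 arrays with dox and between 6.31 and 6.78 on the 9 without. The conditions were apart by more than the range within either. Hoxa9 rose by 0.88 ± 0.05 (adjusted p = 4.77e-09), by 0.75, 0.85 and 0.99 in LT-HSC-derived lines at 48 h, at 72 h and in GMP-derived lines. Its mean level was 7.21 in sorted LT-HSC and 5.89 in sorted GMP. Hoxa5 rose by 1.25 ± 0.08 (adjusted p = 1.02e-08), from between 6.10 and 6.77 to between 7.48 and 7.91. Eya1 rose by 1.4 ± 0.16, Mef2c by 1.06 ± 0.13, Hoxa10 by 0.82, the progenitor factor Myb by 0.59 and the cell cycle kinase Cdk6 by 0.54. Runx1, a master factor of definitive blood formation, fell by 0.42, and Pbx3 (0.41) and Zeb2 (-0.13) did not pass. LT-HSC-derived arrays alone called 15 of 19 higher and GMP-derived arrays alone 14.

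**Figure D2:**
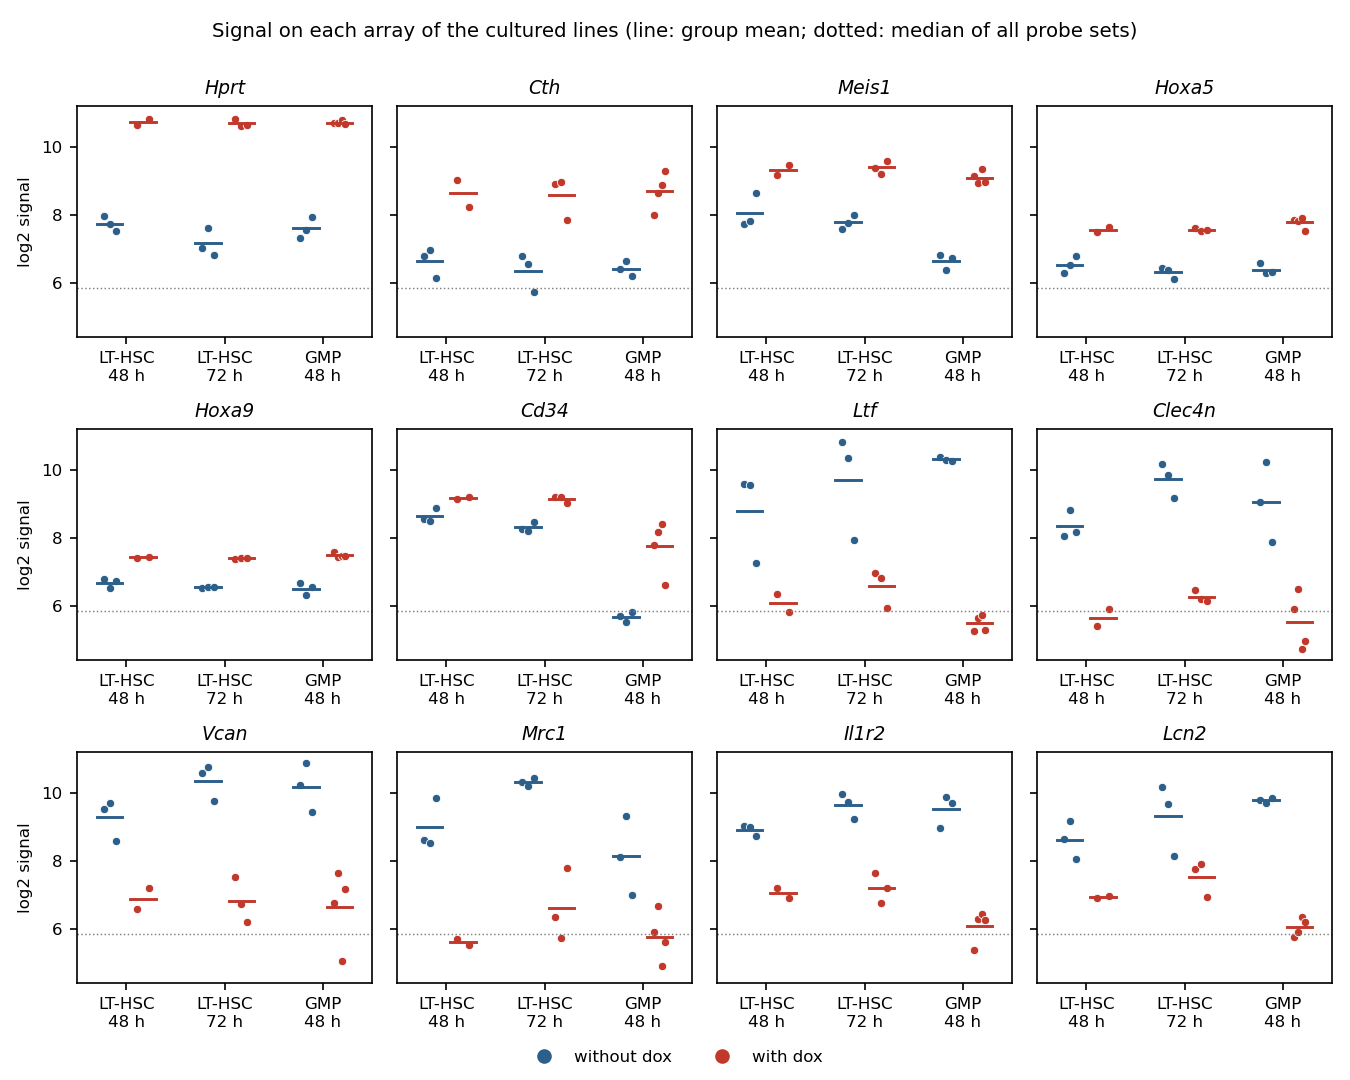
Log2 signal of 12 genes on each of the 18 arrays, by origin and time, with and without dox in different colours; short lines are group means and the dotted line is the median of all probe sets. Hoxa9 with dox lies between 7.38 and 7.57 in all strata, while Ltf without dox spreads between 7.24 and 10.80.

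Genes of the MLL complex and of fusion partners differed little: 5 of 14 rose and 1 fell, against 7.93% and 7.35% of all genes. Their median was 0.15, and the higher calls numbered 1 to 7 under the alternatives. Mllt10, a partner of DOT1L, rose by 0.29 ± 0.06, and Dot1l, the H3K79 methyltransferase, by 0.21 ± 0.05. The Dot1l call ended without the 72 h arrays, without the GMP-derived arrays and with 1 difference per line as a replicate block (adjusted p = 0.0837). Kmt2a (MLL) rose by 0.18 ± 0.05 (adjusted p = 0.0193), with arrays between 8.49 and 9.0 with dox and between 8.51 and 8.78 without, which overlap. That call ended without the 48 h or 72 h LT-HSC-derived arrays and without LT-HSC-derived line B6-1. Mllt3 (0.16 ± 0.08, adjusted p = 0.188) did not pass.

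Hprt, the purine salvage enzyme hypoxanthine phosphoribosyltransferase, had the largest increase of all named genes. Arrays with dox read 10.62 and 10.81 in LT-HSC-derived lines at 48 h, at 10.80, 10.61 and 10.64 at 72 h, and at 10.69, 10.69, 10.77 and 10.67 in GMP-derived lines. Without dox, in the same order, it was at 7.95, 7.71 and 7.51, then 7.03, 7.61 and 6.82, then 7.31, 7.56 and 7.92. The arrays with dox lay close together and far above all arrays without. The difference was 3.22 ± 0.11 (adjusted p = 6.52e-13). Sorted LT-HSC and GMP, at means of 9.41 and 9.78, lay between the conditions. Of 16 genes of purine and pyrimidine synthesis, Hprt included, 11 rose, with a median of 0.29: Ctps, which makes CTP, by 0.44, Umps, which makes UMP, by 0.41 and Ppat, the first step of purine synthesis, by 0.38. Aprt, the salvage enzyme for adenine, fell by 0.25. Without the GMP-derived arrays 3 of these genes were called higher, and without the 72 h arrays 5.

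Genes that make and import amino acids rose in 16 of 20 cases and fell in none, with a median of 0.435 and pair medians from 0.14 to 0.64. Cth, which makes cysteine from cystathionine, was with dox at 9.02 and 8.22, then 8.91, 8.97 and 7.83, then 7.98, 8.64, 8.86 and 9.27, in the order of strata used for Hprt. Without dox it was at 6.78, 6.96 and 6.13, then 6.77, 6.54 and 5.73, then 6.39, 6.64 and 6.20. Every array with dox exceeded every array without. The difference was 2.18 ± 0.20 (adjusted p = 1.09e-06). Sorted LT-HSC and GMP had lower means still, 5.57 and 5.30. Slc7a3 rose by 1.48 ± 0.17, the cystine transporter Slc7a11 by 0.85 ± 0.12 and the mitochondrial folate enzyme Aldh1l2 by 0.84 ± 0.11. Slc7a11 lay between 7.39 and 8.06 with dox and between 6.14 and 7.31 without, with no overlap. Asns (0.59), of asparagine synthesis, and Psat1 (0.45) and Phgdh (0.38), of serine synthesis, rose too, while Cbs (-0.05), the step before Cth, did not pass. Array means of the list ran from 8.08 to 8.48 with dox and from 7.49 to 7.87 without. LT-HSC-derived arrays alone called 10 of 20 and GMP-derived arrays alone 14.

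Many of these genes are known targets of ATF4, a transcription factor of the amino acid stress response. Of 14 other regulators and effectors of that response 4 rose and 1 fell, against 7.93% and 7.35% of all genes. Their median was 0.11. The higher calls numbered 0 to 5 under the alternatives. Stc2 rose by 0.38 ± 0.09, Atf5 by 0.20 ± 0.04 and Atf4 by 0.15. Ddit3 (CHOP) was at 0.17 ± 0.05 (adjusted p = 0.0438), a call that ended under 20 of 35 alternatives. Atf3, also an immediate early gene, fell by 0.81 ± 0.13, and Trib3 (0.11) and Chac1 (0.33) did not pass. Cytosolic tRNA synthetases, which load amino acids onto tRNA, rose in 15 of 18 cases, with a median of 0.26. Lars rose by 0.45 ± 0.05 (adjusted p = 1.07e-05), Iars by 0.40, Eprs by 0.38 and Yars by 0.36. Lars lay between 10.30 and 10.44 with dox and between 9.68 and 10.16 without, with no overlap. Without the GMP-derived arrays 8 synthetases were called.

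RefSeq promoters (build GRCm38.p6, 250 bases before to 50 after a gene's start) of 3 of these genes are shown because they hold TGATGNAA, a core of the amino acid response elements that ATF4 is known to bind. Capitals mark the motif, which was searched on both strands:
Slc7a11, chr3:50443564-50443863, strand minus: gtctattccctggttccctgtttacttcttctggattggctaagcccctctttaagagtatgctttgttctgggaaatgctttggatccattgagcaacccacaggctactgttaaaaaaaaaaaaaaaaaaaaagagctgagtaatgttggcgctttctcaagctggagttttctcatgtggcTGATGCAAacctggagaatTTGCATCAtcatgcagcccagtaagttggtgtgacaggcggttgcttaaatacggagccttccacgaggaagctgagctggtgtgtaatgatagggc
Asns, chr6:7693160-7693459, strand minus: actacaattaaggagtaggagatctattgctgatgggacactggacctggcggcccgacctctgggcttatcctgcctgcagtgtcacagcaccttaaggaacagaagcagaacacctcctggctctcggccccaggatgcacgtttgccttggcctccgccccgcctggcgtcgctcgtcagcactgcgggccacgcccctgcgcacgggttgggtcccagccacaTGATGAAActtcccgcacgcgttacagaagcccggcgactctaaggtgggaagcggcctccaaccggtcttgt
Yars, chr4:129189653-129189952, strand plus: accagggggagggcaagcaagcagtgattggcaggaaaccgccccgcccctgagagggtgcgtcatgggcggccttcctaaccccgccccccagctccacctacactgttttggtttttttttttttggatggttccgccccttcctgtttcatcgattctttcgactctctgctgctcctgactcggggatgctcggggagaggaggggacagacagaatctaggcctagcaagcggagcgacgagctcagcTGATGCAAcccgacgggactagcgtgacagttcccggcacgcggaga

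The motif was in 2 of 15 amino acid genes with a RefSeq promoter (13.3%), in 4 of 11 tRNA synthetases (36.4%) and in 5 of 13 other ATF4 response genes (38.5%). It was in 3.62% of the 15613 tested genes with a promoter and in 3.97% of all 32851 promoters. Genes called higher held it in 3.27% of cases and genes called lower in 3.43%. These matches describe the letters of 300-base windows only.

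Genes of ribosome assembly in the nucleolus rose in 18 of 21 cases and fell in none, with a median of 0.29. Wdr12, which acts in maturation of the large ribosomal subunit, rose by 0.65 ± 0.08 (adjusted p = 3.70e-05), from between 8.72 and 9.5 to between 9.54 and 9.98, with no overlap. Mybbp1a rose by 0.47, the snoRNP protein Nop56 by 0.46 and Gnl3 (nucleostemin) by 0.40. List medians were 0.08, 0.24 and 0.48 in the 3 strata. LT-HSC-derived arrays alone called 4 of 21 and GMP-derived arrays alone 17, while the test of a difference among strata called none of them at an adjusted p under 0.05. CACGTG, the E-box that MYC is known to bind, was in 4 of 16 of their promoters (25.0%) and in 9.5% of those of all tested genes. It was in 13.9% of genes called higher and 12.3% of genes called lower. Among lists with falling genes its share was 30.0% for cholesterol synthesis, 27.3% for cytokine receptors and 26.3% for immediate early genes. For late neutrophil genes it was 6.25%, and for monocyte and macrophage genes 0.0%. Of 14 respiratory chain genes Ndufs1 (0.17) and Cycs (0.15) rose, against 7.93% of all genes. Both calls ended with 1 difference per line as a replicate block (adjusted p = 0.0738 and 0.0764).

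Of 21 DNA replication genes 3 rose, against 7.93% of all genes, Pola1 by 0.29, Mcm6 by 0.26 and Mcm2 by 0.17, with a median of 0.09 and 9 at an unadjusted p under 0.05. Without the 72 h arrays none was called. Of 19 mitosis genes 3 fell, against 7.35% of all genes, the proliferation marker Mki67 by 0.19, Birc5 by 0.17 and Bub1 by 0.14, with a median of -0.03. The unadjusted p was under 0.05 for 4 of them, and 0 to 4 were called lower under the alternatives. The calls of Mcm2 and Bub1 ended once the line entered as a replicate block (adjusted p = 0.0731 and 0.109). Cdkn2c (p18), an inhibitor of the kinases CDK4 and CDK6, rose by 0.88 ± 0.10 (adjusted p = 1.27e-05). It lay between 7.81 and 8.85 with dox and between 7.15 and 7.84 without, and was higher in all 8 pairs. Cyclin D2 (Ccnd2) rose by 0.44 and Cdk4 by 0.25, and Cdkn2d (p19) fell by 0.37. Without the GMP-derived arrays the calls of Ccnd2 and Cdk4 ended, and that of Cdk4 also ended without the 72 h arrays.

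Survival genes split. Bcl2l11 (BIM), which promotes cell death, fell by 0.59 ± 0.08 (adjusted p = 8.4e-05), from between 6.29 and 7.25 to between 5.86 and 6.40. Mcl1, which protects cells, fell by 0.47 ± 0.08, and Bcl2, which also protects them, rose by 0.75 ± 0.16 with unequal strata, as described with the strata. Of 12 BCL2 family genes 1 rose and 5 fell, with 2 to 5 lower calls under the alternatives. Of 11 p53 targets Sesn1 rose by 0.42, and Trp53inp1, Plk2 and Mdm2 fell by 0.41, 0.38 and 0.16. The Mdm2 call ended once the line entered as a replicate block (the adjusted p was 0.0516). Without GMP-derived no-dox replicate 1 or 2, 1 p53 target was called lower, and without the GMP-derived arrays 0 were. Trp53inp1 differed by -0.12, -0.10 and -0.90 in the strata.

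Late neutrophil genes, which encode proteins of secondary and tertiary granules and of mature neutrophils, had the lowest median of the 36 lists in the pooled fit. In LT-HSC-derived lines their medians, -0.55 at 48 h and -0.67 at 72 h, were less negative than those of monocyte and macrophage genes, -0.76 and -1.27. Of 19 measured 18 fell, against 7.35% of all genes, with a median of -1.28. Ltf (lactoferrin) was without dox at 9.57, 9.54 and 7.24, then 10.80, 10.34 and 7.92, then 10.36, 10.27 and 10.26, in the same order of strata. With dox it was at 6.33 and 5.80, then 6.97, 6.81 and 5.94, then 5.26, 5.65, 5.73 and 5.28. The lowest no-dox values, 7.24 and 7.92, both came from LT-HSC-derived line B6-1 and still exceeded every array with dox. The difference was -3.66 ± 0.40 (adjusted p = 6.46e-06). Lcn2 (lipocalin 2) fell by 2.51 ± 0.31, Camp (cathelicidin) by 2.19 ± 0.40 and Mmp8 (neutrophil collagenase) by 1.87 ± 0.27, and Mmp9 (-0.27) did not pass. LT-HSC-derived arrays alone called 7 genes with a median of -0.61, and GMP-derived arrays alone 16 with -1.99. Array means of the list ran from 7.12 to 8.03 with dox and from 8.11 to 9.46 without, against 6.57 to 7.48 in sorted GMP and 5.93 to 6.62 in sorted LT-HSC.

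Primary granule genes are made earlier in the lineage. In the pooled fit they rose in 1 case, against 7.93% of all genes, and fell in none, with a median of -0.01 over 8 genes. LT-HSC-derived arrays alone called 0 higher and 1 lower, against 3.50% of all genes lower. GMP-derived arrays alone called 0 higher and 2 lower, against 4.11%. Ctsg (cathepsin G) rose by 0.30 ± 0.08 (adjusted p = 0.0174), a call that ended without the 72 h arrays, without the GMP-derived arrays and in the fit of all 26 arrays. Mpo (0.18) and Elane (0.11), myeloperoxidase and neutrophil elastase, did not pass. Prss57, a serine protease of these granules, was at 0.02, 0.70 and -0.82 in the strata, which differed (adjusted p = 0.0113).

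Promoters of a pair of late neutrophil genes are shown because they hold TTGCNNAA, a core to which C/EBP factors of granulocytes are known to bind. Capitals mark the motif, which was searched on both strands:
Ltf, chr9:111019042-111019341, strand plus: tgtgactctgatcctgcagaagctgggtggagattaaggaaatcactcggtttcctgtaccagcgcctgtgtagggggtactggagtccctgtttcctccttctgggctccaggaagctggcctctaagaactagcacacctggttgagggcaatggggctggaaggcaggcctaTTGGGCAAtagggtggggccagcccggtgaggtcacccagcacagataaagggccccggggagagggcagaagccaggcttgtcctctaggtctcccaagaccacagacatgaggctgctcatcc
Lcn2, chr2:32387690-32387989, strand minus: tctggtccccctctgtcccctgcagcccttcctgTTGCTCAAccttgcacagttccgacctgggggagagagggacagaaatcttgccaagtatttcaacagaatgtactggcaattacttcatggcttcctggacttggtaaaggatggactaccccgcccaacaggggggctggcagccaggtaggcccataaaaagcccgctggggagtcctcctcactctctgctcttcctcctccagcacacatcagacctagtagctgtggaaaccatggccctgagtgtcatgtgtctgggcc

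The motif was in 8 of 16 late neutrophil genes with a RefSeq promoter, in 11.3% of tested genes and in 10.8% of all promoters. Of genes called lower 14.4% held it, and of genes called higher 8.57%. Primary granule genes, of which none was called lower in the pooled fit, held it in 2 of 6 cases (33.3%). Monocyte and macrophage genes, most of which fell, held it in 7.69%. Of the C/EBP genes themselves, Cebpe fell by 0.39, Cebpd by 0.32 and Cebpb by 0.21, and Cebpa (0.04) did not pass.

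**Figure D3:**
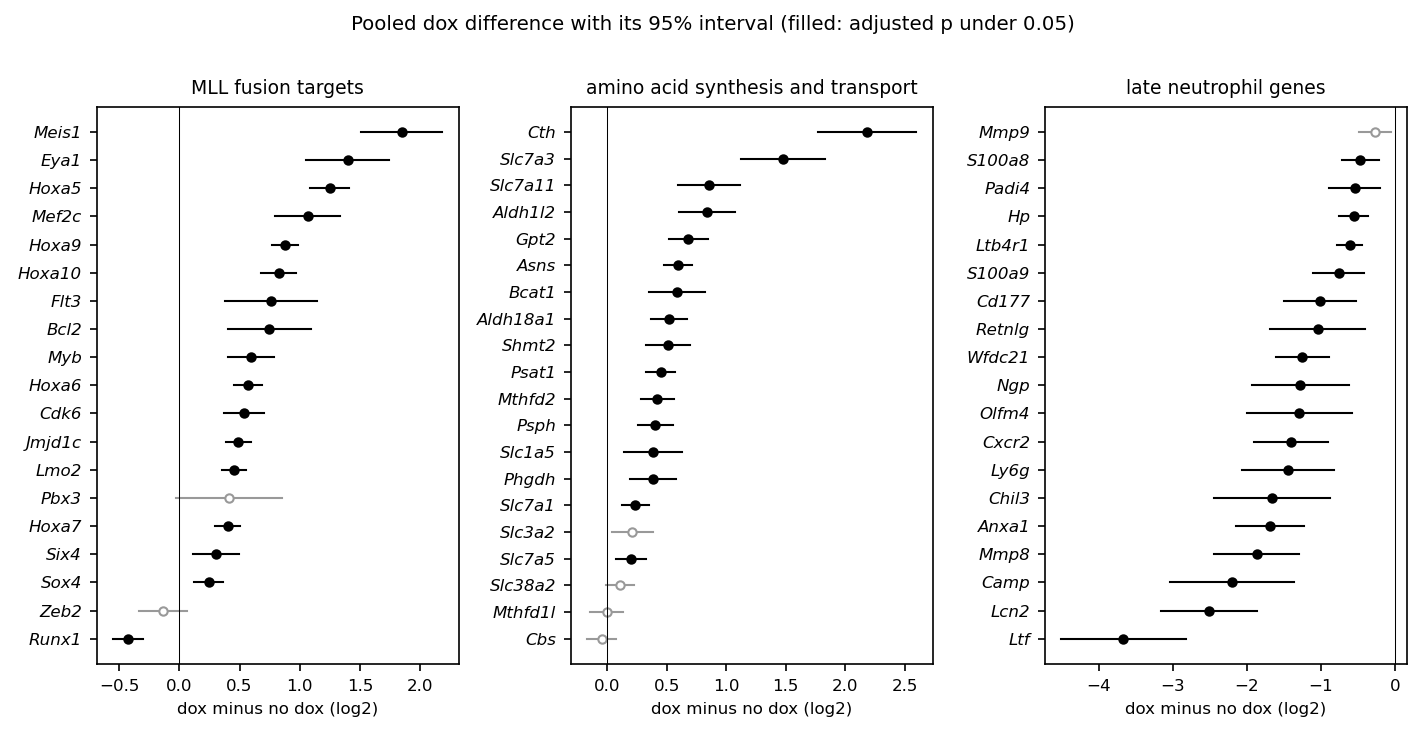
Pooled log2 difference (dox minus no dox) of each measured member of 3 lists, with the 95% interval of the fit over 18 arrays; filled points passed an adjusted p of 0.05 and open points did not. Of the MLL fusion targets 16 of 19 were called higher, of the amino acid genes 16 of 20, and of the late neutrophil genes 18 of 19 were called lower.

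Monocyte and macrophage genes fell in 15 of 17 cases, with a median of -0.99 and pair medians from -1.42 to -0.71. Mrc1, the mannose receptor of macrophages, was without dox at 8.59, 8.53 and 9.84, then 10.32, 10.18 and 10.43, then 8.09, 9.30 and 7.0. With dox it was at 5.70 and 5.51, then 6.35, 5.72 and 7.77, then 5.89, 6.65, 4.89 and 5.62. Across strata the conditions overlapped: the 72 h dox array of LT-HSC-derived line B6-1 exceeded the lowest GMP-derived array without dox. The difference was -3.09 ± 0.33 (adjusted p = 5.78e-06). Gpnmb fell by 1.43, Ms4a6d by 1.65 and Cybb, the oxidase subunit of phagocytes, by 1.58 ± 0.27. LT-HSC-derived arrays alone called 15 of 17 and GMP-derived arrays alone 6, with medians of -1.04 and -1.14. Array means of the list ran from 6.97 to 8.43 with dox and from 8.47 to 9.56 without, against 8.27 to 8.49 in sorted GMP.

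Outside the lists, the lectin receptors of myeloid cells Clec4n (dectin-2), Clec4a1 and Clec4a3 fell by 3.29, 2.88 and 2.62. Clec4n lay between 4.72 and 6.48 with dox and between 7.87 and 10.21 without, with no overlap. Vcan (versican), a matrix proteoglycan, fell by 3.22 ± 0.32, from between 8.58 and 10.88 to between 5.04 and 7.63. Clec4a1 with dox lay between 3.99 and 4.86, below the median of all probe sets, so the size of its decrease is uncertain. The Clec4a, Ms4a6 and Klk1b genes belong to families of similar copies, so their probe sets may share signal.

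Genes of inflammatory signalling were lower with dox. Of 20 chemokine, cytokine and NF-kB genes 13 fell and none rose, with a median of -0.52: Ccl6 by 1.35 ± 0.22, the monocyte attractant Ccl2 by 1.23 and Il1b by 1.21 ± 0.27. Il6 (-1.28 ± 0.42, adjusted p = 0.0430) lost its call under 18 of 35 alternatives. In GMP-derived lines Il6 was at 6.92, 3.31 and 3.69 without dox and at 4.78, 3.17, 3.25 and 3.85 with dox, so that a single array without dox stood above the others. Of 13 cytokine receptor genes 7 fell and 1 rose. The decoy receptor Il1r2 fell by 2.67 ± 0.22 (adjusted p = 3.81e-07), the common beta chain Csf2rb by 1.13 ± 0.10 and Il6st by 0.81, and Flt3, a receptor of early progenitors, rose by 0.76 ± 0.18. Il1r2 lay between 5.36 and 7.64 with dox and between 8.72 and 9.95 without, with no overlap.

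Of 22 immediate early genes, which respond to signals and also to cell handling, 12 fell and none rose, with a median of -0.42. Egr2 was without dox at 7.58, 8.01 and 7.69, then 9.31, 9.12 and 8.32, then 8.22, 9.38 and 6.63, and on the 9 arrays with dox between 5.87 and 6.61. Every array with dox lay below every array without. It fell by 2.01 ± 0.27 (adjusted p = 6.17e-05), Klf6 by 1.23 ± 0.11, Btg2 by 1.18 and Ier3 by 1.10 ± 0.13, while Egr1 (-0.47) and Nr4a1 (0.01) did not pass. Of 14 myeloid transcription factors 9 fell and none rose. The inhibitors of E proteins Id2, Id3 and Id1 fell by 1.37, 0.69 and 0.63, Irf4 by 0.98 and Spi1 (PU.1) by 0.42. With dox Irf4 lay between 4.27 and 4.81 and Id3 between 5.19 and 5.61. Both were then below the median of all probe sets, so the size of these decreases is uncertain. Without the 72 h arrays 8 chemokine, cytokine and NF-kB genes and 7 immediate early genes were called lower.

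Genes of glucose use and hypoxia fell in 13 of 16 cases, with a median of -0.42. The glucose transporters Slc2a3 (GLUT3) and Slc2a1 (GLUT1) fell by 1.21 ± 0.15 (adjusted p = 1.77e-05) and 0.77 ± 0.11, and the hypoxia genes Bnip3 and Ndrg1 by 1.01 ± 0.19 and 0.75 ± 0.10. Slc2a1 lay between 7.2 and 7.83 with dox and between 7.89 and 8.63 without, with no overlap. LT-HSC-derived arrays alone called 13 and GMP-derived arrays alone 2, with medians of -0.47 and -0.30, and the test of a difference among strata called no member at an adjusted p under 0.05. Without the 72 h arrays 8 were called. Of 13 cholesterol synthesis genes 5 fell, led by Mvd (-0.43) and Hmgcs1 (-0.32), and without the 72 h arrays 1 was called. Of 12 glutathione genes the transferase Gsta4 rose by 1.14 ± 0.15 and Gclc by 0.22, and Mgst1, Gsr and Gclm fell by 0.68, 0.38 and 0.30. Of 15 interferon response genes Mx1 (-0.32) and Rtp4 (-0.26) were called lower, both below the median of all probe sets on all 18 arrays. The counts of the cholesterol, glutathione and interferon lists stand against 7.93% of all genes called higher and 7.35% lower.

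Genes of epithelial-mesenchymal transition fell in 6 of 20 cases, against 7.35% of all genes, and rose in 1, against 7.93%, with a median of -0.05. Fibronectin (Fn1) fell by 2.54 ± 0.27, Tgfbi by 2.22 ± 0.18, S100a4 by 1.91 ± 0.23 and the epithelial cadherin Cdh1 by 1.03 ± 0.11. Tgfbi lay between 6.34 and 7.47 with dox and between 8.4 and 10.07 without, with no overlap. Macrophages are known to express Fn1, Tgfbi and S100a4, and 15 of 17 monocyte and macrophage genes fell on the same arrays; their part in these decreases was not tested. Tcf4, an E protein, rose by 0.72 ± 0.10 (adjusted p = 1.11e-04), and Zeb1 (0.16 ± 0.12, adjusted p = 0.501) did not pass. Of 15 migration and adhesion genes 9 fell and 1 rose. The chemokine receptor Ccr1 fell by 2.46 ± 0.23, the urokinase receptor Plaur by 1.32 ± 0.15, Adam8 by 0.85 and the myeloid integrin Itgam by 0.80, and Itga4 rose by 0.28. Without the GMP-derived arrays 4 were called lower.

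Stem cell genes as a list had a median of -0.01 over 18 genes, with Mecom and Erg called higher, against 7.93% of all genes. Erg, an ETS factor, rose by 0.47 ± 0.12 (adjusted p = 0.0112), a call that ended without the 72 h arrays. Cd34, a surface marker of progenitors, was with dox at 9.13 and 9.18, then 9.18, 9.20 and 9.01, then 7.78, 8.17, 8.41 and 6.61. Without dox it was at 8.54, 8.48 and 8.87, then 8.26, 8.19 and 8.47, then 5.68, 5.53 and 5.80. GMP-derived lines were lower than LT-HSC-derived lines in both conditions. Cd34 rose by 1.23 ± 0.23 (adjusted p = 9.23e-04), by 0.53, 0.82 and 2.07 in the strata, which did not pass the test of a difference (adjusted p = 0.306). Epha7, an ephrin receptor, rose by 1.41 ± 0.31 (adjusted p = 0.00375), by 0.59, 0.56 and 2.74 (adjusted p = 0.0888 for a difference). The surface markers Cd9 and Fcgr3 fell by 0.89 and 0.80.

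Of 8 genes found in all blood cells 4 fell, Lcp1 by 0.33, Coro1a by 0.32, Ptprc by 0.29 and Vav1 by 0.25. Without the GMP-derived arrays 1 was called lower. Limma called 0 of 10 mast cell and basophil genes, with 4 at an unadjusted p under 0.05, and 2 were called higher with the line as a replicate block. It called 0 of 8 B cell genes, with 0 at an unadjusted p under 0.05, and 0 of 8 T and NK cell genes, with 1; neither list had a call under the alternatives. Of 5 megakaryocyte genes Pf4 fell by 1.03, and of 9 erythroid genes Car1 rose by 0.93 ± 0.19. In pairs of LT-HSC-derived lines Pf4 differed by -2.13 to -0.60 and Car1 by 1.04 to 2.06. In pairs of GMP-derived lines Pf4 ranged from -0.52 to 0.36 and Car1 from -0.23 to 0.40. The Pf4 call ended under 11 of 35 alternatives and the Car1 call under 4. Both calls ended with 1 difference per line as a replicate block (adjusted p = 0.0532 and 0.0571). Of 10 stromal and endothelial genes Pecam1, which blood cells also express, rose by 0.50, and Lepr (-0.22, adjusted p = 0.0459) lost its call under 20 of 35 alternatives.

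**Figure D4:**
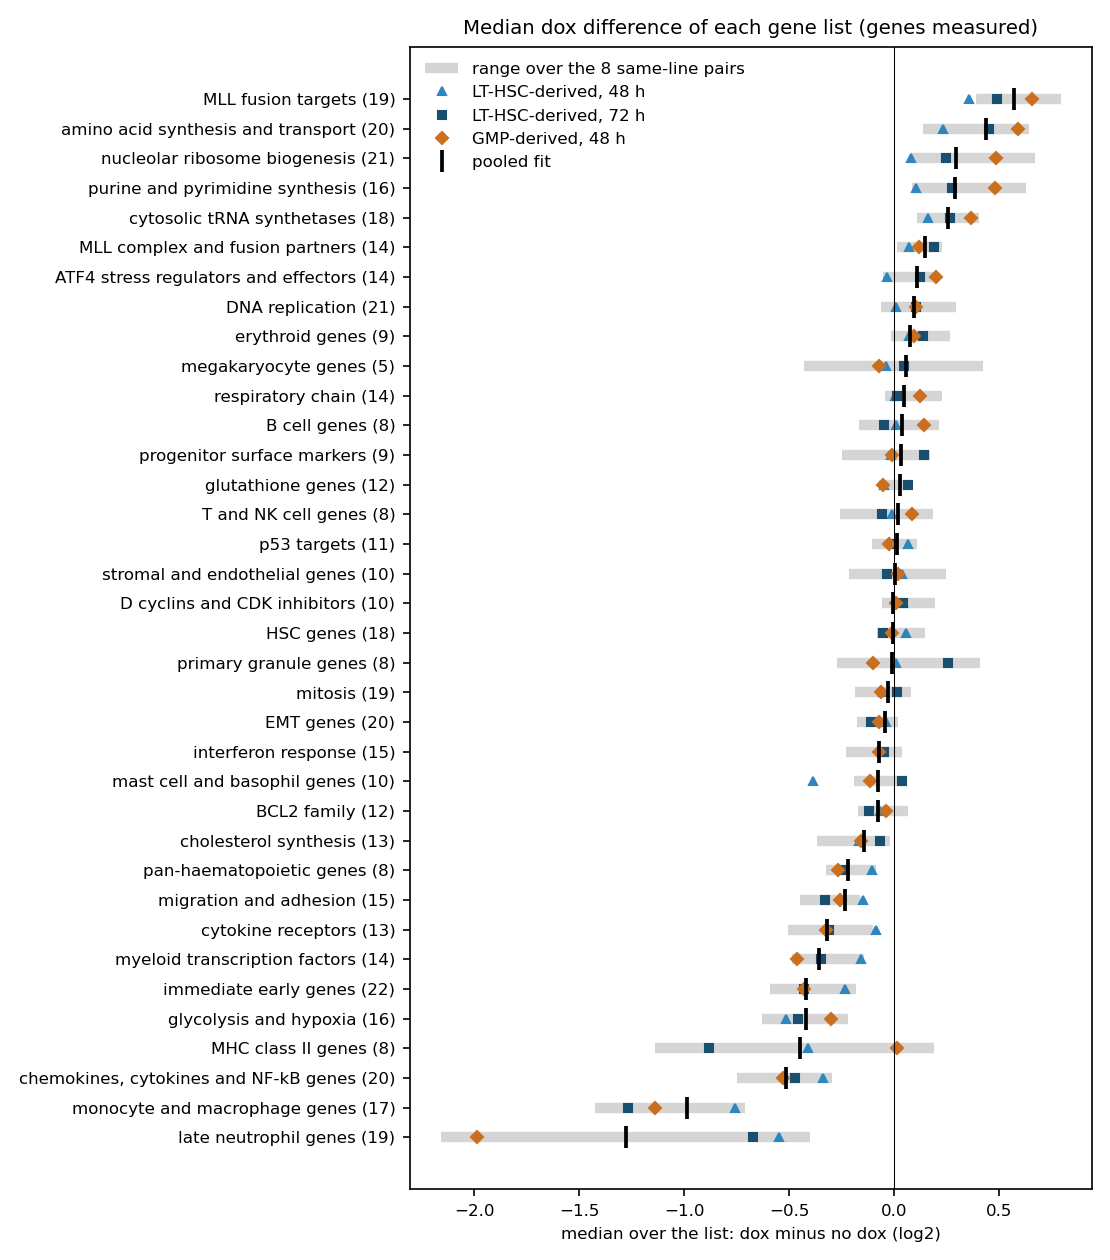
Median log2 difference (dox minus no dox) of each of 36 gene lists, for the pooled fit and for the 3 strata, with the range over 8 pairs of arrays of the same line and time as a grey band, which a stratum can leave since it also holds arrays with no partner. In the pooled fit MLL fusion targets (0.57) stand highest and late neutrophil genes (-1.28) lowest, while in both LT-HSC-derived strata monocyte and macrophage genes stand lowest.

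Few genes were called for a dox effect that differed among strata. With so few arrays per group, a gene that was not called may still differ. Limma's F test called 43 genes (0.216%), 26 of them also in the pooled fit, and 1801 had an unadjusted p under 0.05. The contrast of origins at 48 h called 15 (0.0752%). Leaving out 1 array at a time gave 21 to 56 genes for the F test and 5 to 41 for the contrast. Bcl2 was with dox at 9.08 and 9.19, then 9.12, 9.18 and 9.12, then 8.32, 8.48, 8.28 and 8.29. Without dox it was at 9.0, 9.09 and 8.95, then 8.77, 8.73 and 8.93, then 7.07, 6.44 and 6.85. GMP-derived arrays without dox were the lowest, and in LT-HSC-derived lines the conditions overlapped at 48 h but not at 72 h. The differences were 0.12, 0.33 and 1.55 (adjusted p = 0.00322 among strata, 0.00368 between origins at 48 h).

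Mecom, a stem cell transcription factor, lay between 7.01 and 7.88 with dox and between 4.51 and 5.80 without in LT-HSC-derived lines. In GMP-derived lines it lay between 4.32 and 5.26 with dox and between 4.48 and 4.68 without, below the median of all probe sets. Thus it differed in LT-HSC-derived lines, by 2.14 and 2.64, and by 0.12 in GMP-derived lines (adjusted p = 0.0113 among strata). LT-HSC-derived levels without dox were also below the median of all probe sets, so the size of their increase is uncertain. The pooled call (1.53 ± 0.31, adjusted p = 0.00176) ended without the 72 h arrays and with no stratum block. It also ended with 1 difference per line as a replicate block (adjusted p = 0.0512). A second probe set gave a mean of 0.83 over the strata, against 1.64.

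MHC class II genes, which present antigen, differed in LT-HSC-derived lines. H2-Aa was without dox at 7.36, 7.98 and 8.64 at 48 h and at 9.03, 9.37 and 9.59 at 72 h, against 6.62 and 6.66, and 7.04, 6.91 and 6.84, with dox. In GMP-derived lines it lay between 4.23 and 4.74 with dox and between 4.44 and 5.00 without, below the median of all probe sets, so a decrease could not be measured there. The differences were -1.35, -2.40 and -0.09 (adjusted p = 0.0108 among strata), and those of H2-Ab1 were -1.30, -2.39 and 0.03 (adjusted p = 0.0133). Both pooled calls ended with 1 difference per line as a replicate block (adjusted p = 0.102 and 0.129). Of 8 class II genes 5 fell in the pooled fit, among them the invariant chain Cd74 by 1.37 ± 0.27, and H2-Ob rose by 0.54. Without the 72 h arrays 0 were called lower. GMP-derived arrays alone called 2 class II genes higher and 0 lower.

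Other named genes that the F test called follow. Chil3, a chitinase-like protein of myeloid cells, lay between 10.33 and 11.15 on all arrays without dox. With dox it lay between 9.66 and 10.44 in LT-HSC-derived lines and between 6.68 and 8.36 in GMP-derived lines. Its differences were -0.65, -0.43 and -3.45 (adjusted p = 0.00859). The lectin Clec4b2 differed by -0.42, -0.17 and -3.53 (adjusted p = 0.00452), the lysosomal trafficking gene Lyst by -0.20, -0.27 and -1.29 (adjusted p = 0.00859), the adhesion gene Alcam by -0.41, -0.73 and -1.87 (adjusted p = 0.00953) and the actin crosslinker Actn1 by -0.25, -0.55 and -1.32 (adjusted p = 0.00787). Gsta4 differed by 0.77, 1.87 and 0.76 (adjusted p = 0.0476), most at 72 h.

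**Figure D5:**
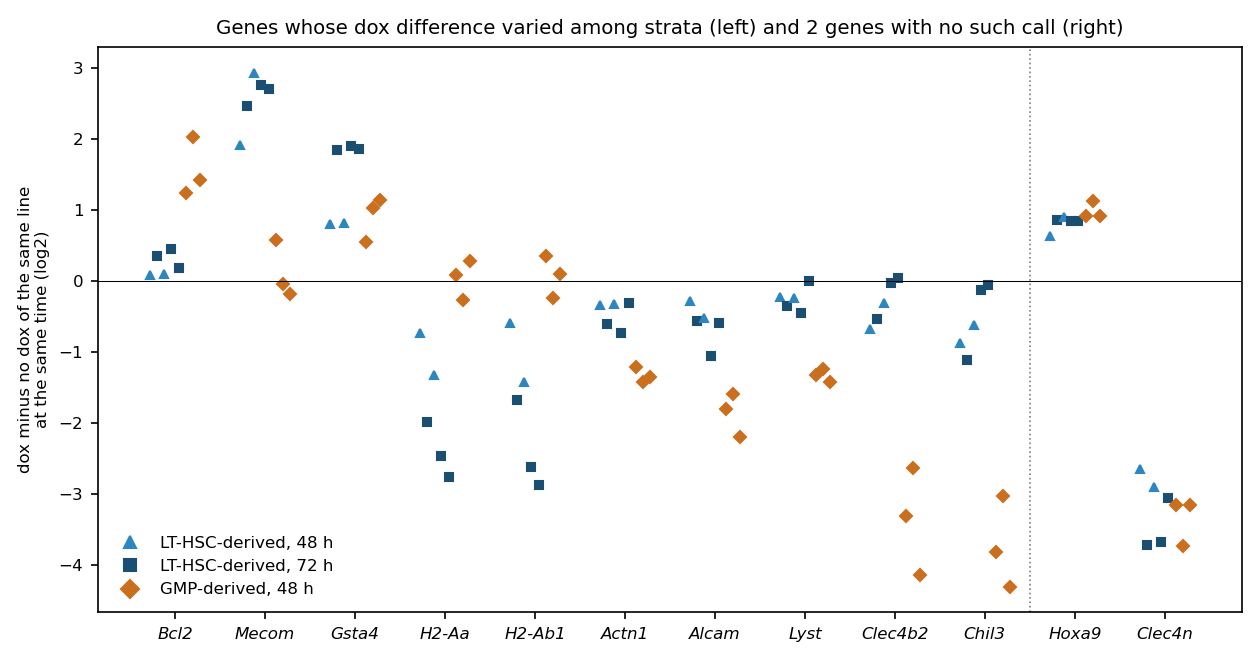
Log2 difference (dox minus no dox) of each of the 8 pairs of arrays of the same line and time, by origin and time, for 10 genes whose difference varied among strata and for Hoxa9 and Clec4n, which had no such call. For Bcl2 the strata differed by 0.12, 0.33 and 1.55 and for Mecom by 2.14, 2.64 and 0.12.

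Among genes that passed in the pooled fit but in no stratum, the largest differences came with wide spread between lines. Stfa3, a cysteine protease inhibitor, was without dox at 9.03, 8.56 and 4.33, then 11.20, 10.05 and 6.27, then 8.21, 8.97 and 10.58. With dox it was at 5.71 and 5.21, then 8.26, 7.81 and 4.84, then 4.64, 5.09, 7.04 and 6.54. LT-HSC-derived line B6-1 gave the lowest no-dox value of both times, and the conditions overlapped, yet all 8 same-line pairs were lower with dox. The difference was -2.58 ± 0.72 (adjusted p = 0.0184). Once the line entered as a replicate block the adjusted p was 1.57e-07, and without the GMP-derived arrays the call ended. Prelid2 (-1.37), Ms4a4c (-1.27), the costimulatory receptor Cd86 (-1.25) and Il1b (-1.21) were also lower in all 8 pairs.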

How the data were processed

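The deposited values were 1 per probe set and array on a log2 scale. Limma and R 3.1.1 are named in the submitters' processing notes. Not given in these sources is how the authors corrected background, summarised probes and normalized. Precision is limited by how many arrays there are. Of 34760 probe sets 21640 had 1 gene symbol in the platform annotation, 1321 several and 11799 none. Where a gene had several, the 1 with the highest mean level on all 26 arrays was used, giving 19937 genes. Limma 3.58.1 (R 4.3.3) fitted dox with the 3 strata as a block over 18 arrays, with Benjamini-Hochberg adjustment at 0.05. A fit of 6 group means gave the strata and their F test, and each origin was also fitted alone. The fits were tested on simulated data.

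Dox and no-dox arrays of 1 line, named in the labels' titles, form pairs. Their deviations from group means correlated with r of -0.06 to 0.40, and the line as a replicate block was an alternative. Genes named were, by rule, up to 12 largest increases and 12 largest decreases without overlap in any stratum, up to 4 called members per list, up to 6 genes that differed most among strata, up to 6 called in no stratum and 14 fixed genes; other list members and Prkd2 were chosen after their values were seen. Members and lists were chosen with earlier results of these data known. Alternatives changed the block, normalization, filter, weights, probe set rule and arrays; leaving out LT-HSC-derived line B6-1 was chosen after seeing the data.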

Additional observations from a re-analysis of the deposited data

Results flagged for a closer look

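In the group of 4 GMP-derived arrays with dox, 1 array stood far from the others for 11 of 137 genes named by rule. The criterion was Dixon's test of the gap at the 95% level. The log2 levels of these arrays were Hoxa9 on array 1 (7.57), Mllt10 on array 3 (9.27), Gsta4 on array 4 (5.78), Mybbp1a on array 4 (8.42), Gnl3 on array 2 (10.12) and Cdk4 on array 2 (9.94). The rest were H2-Aa on array 4 (4.23), Ccr1 on array 3 (4.12), Car1 on array 2 (5.34), Ms4a4c on array 3 (4.80) and Cd86 on array 3 (4.84). Chance alone gives such a gap in about 1 of 20 groups.

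The dox effect differed among strata for 10 of the 137 genes named by rule by limma's F test, with these adjusted p values: Gsta4 (0.0476), Bcl2 (0.00322), H2-Aa (0.0108), H2-Ab1 (0.0133), Mecom (0.0113), Clec4b2 (0.00452), Actn1 (0.00787), Chil3 (0.00859), Lyst (0.00859) and Alcam (0.00953). Prss57, named outside the rule, was called too. The levels behind them are given in the report.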

How the results depend on the processing

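Against 3048 genes called in the pooled fit, 1598 were called from 48 h arrays only, which is the same as without the 72 h stratum (725 higher and 873 lower), and 1217 without the GMP-derived arrays (519 higher and 698 lower). Leaving out 1 array gave 2454 to 3113 (1262 to 1686 higher, 1192 to 1585 lower), lowest without GMP-derived no-dox replicate 2. With the line as a replicate block 3228 genes were called, 2753 of them shared with the pooled fit, and with 1 difference per line 2546, 2288 shared. Other alternatives gave 2197 (no stratum block) to 3591 (array weights). The F test's 43 calls became 77 with all 26 arrays, 80 with array weights and 73 without LT-HSC-derived line B6-1, and 21 to 56 when 1 array was left out, lowest without GMP-derived no-dox replicate 3. The 15 calls between origins at 48 h became 25 with the line as a random replicate block, 46, 50 and 25 under the other settings in the same order, and 5 to 41 when 1 array was left out, highest without LT-HSC-derived no-dox 72 h replicate 3. The causes were not tested. No called gene of the 137 named by rule changed sign under any of the 35 alternatives. Zeb1, which was not called, ranged from -0.09 to 0.40. Among the same genes the line as a replicate block ended 3 calls (Bub1, Mcm2 and Mdm2) and 1 difference per line 15. Calls ended for 28 with no stratum block, for 41 with 48 h arrays only and for 39 without the GMP-derived arrays. Signals below the median of all probe sets limit the size of differences.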
